A study of Homo sapiens with 6 samples.

Results

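The response of a colorectal carcinoma cell line to the MDM2 inhibitor Nutlin-3 was described gene by gene and, within genes, probe set by probe set. Of the 6 arrays of the series, 4 were compared: 2 of HCT116 +/+ cells treated with Nutlin-3 and 2 of control cells. The members were 17841 of the 19488 genes with a named probe set, taken by brightness over all 6 arrays, the treated ones included. A gene that is higher after a drug could therefore become a member through its treated arrays. A probe set is a small group of probes that mostly lies within a single exon. A gene was a member when at least 2 of its probe sets, each assigned to that gene alone, had a mean over the 6 arrays above the median of all probe-set means, 4.73 on the log2 scale of the deposited values. The members used 268126 probe sets, with a median of 12 per gene.

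HCT116 is an established human colorectal carcinoma line, and the titles of all 6 samples carry the mark +/+ without naming the locus. The labels of the treated samples read Nutlin 3R and the design text reads Nutlin-3. The controls are labelled as having had no treatment, and the design text gives DMSO. The 2 other arrays were of cells given 5-fluorouracil (5FU), a fluorinated pyrimidine that blocks thymidylate synthase and enters RNA. All cells were collected at 12 h, no dose is stated, and RNA was isolated with PicoPure per the labels and with RNeasy per the design text. A single cell line was used, and the labels do not say whether replicates were separate cultures, so each p-value measures the spread between these arrays alone, and that spread may be technical. An exact permutation test of 2 arrays against 2 cannot give a p below 0.333, so tests came from limma, which shares information on the spread across all genes.

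MDM2 is a ubiquitin ligase that binds p53 and sends it to the proteasome, and Nutlin-3 occupies the p53-binding pocket of MDM2, so that p53 accumulates without DNA damage. p53 then activates genes for cell-cycle arrest, apoptosis, DNA repair and metabolism, among them MDM2 itself, which closes a negative feedback loop. The p53 target CDKN1A encodes p21, an inhibitor of cyclin-dependent kinases. With these kinases inhibited, RB holds E2F factors, which drive S-phase genes, and the DREAM complex represses genes of S phase and mitosis through E2F sites and through the CHR element.

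After Nutlin-3, 217 of the 17841 genes passed an adjusted p of 0.05 (1.22% of those tested). Of these, 64 rose (0.359%) and 153 fell (0.858%), and the falls were the larger changes: the median change was 1.17 (log2) among the rises and -1.46 among the falls. A change of at least 2-fold was reached by 44 of the rises and 135 of the falls. The median over all genes was 0.00062. Of the rises, 29 belonged to 7 lists of p53 target genes grouped by role, and 35 did not. Of the falls, 101 belonged to 9 lists of cell-cycle genes and 12 were histone genes, which leaves 40 others. An unadjusted p under 0.05 was reached by 1821 genes. The number of calls rested on single arrays: it was 5 without control replicate 1 (3 higher, 2 lower), 115 without control replicate 2, 31 without Nutlin-3 replicate 1 (13 higher, 18 lower) and 131 without Nutlin-3 replicate 2. All 217 genes kept their direction in each of these fits. That was fixed in advance, because the control and Nutlin-3 arrays did not overlap in any called gene. As the calls rested on single arrays, sizes and per-array values are given below beside each call.

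**Figure D1:**
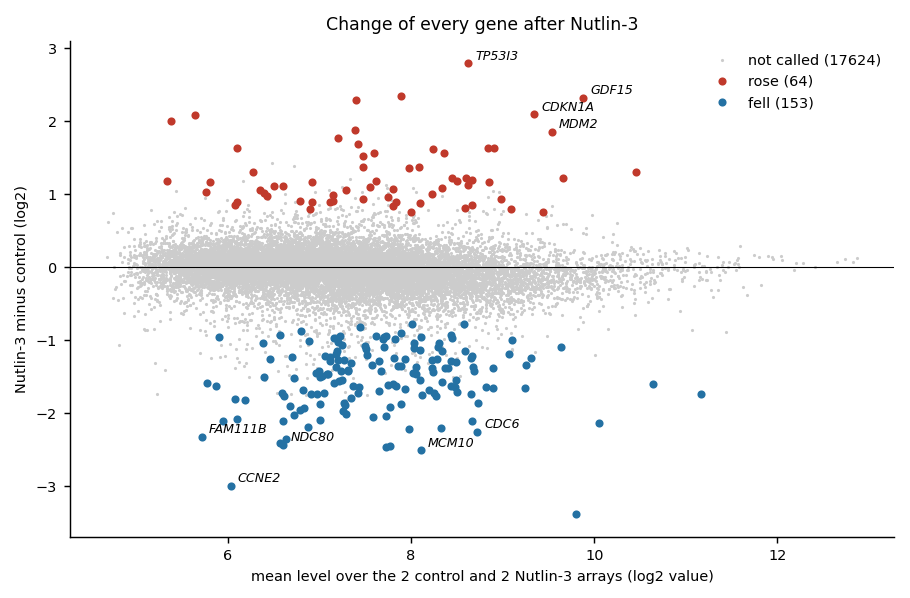
Change of every gene after Nutlin-3 (Nutlin-3 minus control, log2, vertical axis) against its mean level over the 4 arrays (log2 value, horizontal axis). Grey points are genes that were not called, red points the 64 that rose and blue points the 153 that fell; called genes lay at most levels, and the falls reached further from 0 than the rises.

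The cells carried epithelial transcripts. KRT8, a keratin of simple epithelia, read 11.14 and 11.16 on the control arrays and 11.29 and 11.31 on the Nutlin-3 arrays, and CDH1, the epithelial cadherin, read 7.84 and 7.69 against 7.61 and 8.01. None of the 14 colonic epithelial markers was called, and their mean level lay between 7.74 and 7.85 on the 4 arrays. The mean over 11 fibroblast markers lay between 6.19 and 6.398 and that over 8 blood cell markers between 6.34 and 6.54. ACTA2 was called among these, and the other 10 fibroblast markers were not. These arrays carry no detection call, so no marker can be said to be absent. Correlations between arrays across genes ran from 0.92 to 0.98. Replicates correlated at 0.963 (control), 0.967 (Nutlin-3) and 0.981 (5FU). Control replicate 1 was closer to 5FU replicate 2, at 0.970, than to the other control array.

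MDM2 read 8.64 and 8.57 on the control arrays, 10.26 and 10.67 after Nutlin-3 and 10.04 and 10.31 after 5FU. Both Nutlin-3 values lay above both control values, and the rise was 1.86 (log2, 95% interval 1.43 to 2.29, adjusted p = 0.0099, limma), a 3.63-fold change. All 25 of its probe sets moved up, 21 of them by at least 1. The rise was not even: probe sets 3421302, 3421303, 3421304 and 3421305 moved by 0.43, 0.33, 0.18 and 0.39. TP53INP1, a nuclear protein that promotes p53-dependent death and autophagy, read 6.82 and 6.61 against 8.86 and 9.27 and rose by 2.35. ZMAT3, an RNA-binding zinc finger protein, read 7.04 and 6.54 against 8.12 and 8.21 and rose by 1.38. These were the 3 that rose among 14 measured genes of feedback and modification of p53. The median change of that list was 0.76 (0.61 to 0.91 over 12 settings of the processing and of the arrays used). The 12 include the fit as reported and fits without 1 array, and leaving out either 5FU array repeats the reported median. Over all genes 0.359% rose. Groups did not overlap for 9 of the 14, against 34.2% of all genes. PPM1D, the phosphatase that removes activating phosphates from p53, read 8.64 and 8.59 against 9.27 and 9.51, apart by 0.77, but did not pass (adjusted p = 0.0797, limma). MDM4, the relative of MDM2 that also restrains p53, read 7.44 and 6.78 against 7.04 and 7.65: the groups overlapped, and the difference of 0.23 had an interval from -0.42 to 0.88.

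Among 23 measured targets in growth arrest, 7 rose and none fell (median 0.57). Over all genes 0.359% rose and 0.858% fell, and the counts of the lists below stand beside these same shares. CDKN1A read 8.32 and 8.27 on the control arrays, 10.39 and 10.39 after Nutlin-3 and 10.12 and 10.03 after 5FU. Its rise of 2.10 (interval 1.797 to 2.39; adjusted p = 0.00308, limma) was far larger than the distance between replicates. GDF15, a secreted member of the TGF-beta superfamily, read 8.76 and 8.67 against 11.001 and 11.08 and rose by 2.32 (adjusted p = 0.0023, limma). CDKN1A, GDF15 and TP53I3 were the 3 of the 65 called genes named by rule that passed in all 14 fits without a replicate block. The 14 include the fit as reported. Leaving out either 5FU array gave the same test as the 4 compared arrays alone, so the 14 are not separate checks. BTG2, an antiproliferative protein that recruits deadenylases, read 7.68 and 7.49 against 9.07 and 9.21 and rose by 1.56. SESN1, a leucine-sensing regulator of mTORC1 known from the p53 response, read 7.19 and 6.44 against 8.32 and 8.43 and rose by 1.56; the SD of the control arrays was 0.53, and the call held in 7 of the 14 fits. SFN (14-3-3 sigma, which holds back entry into mitosis), GADD45A and the kinase gene PLK3 rose by 1.30, 1.197 and 1.00.

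Of 29 measured targets in apoptosis 5 rose (median 0.37): TP53I3, FAS, TNFRSF10B, TNFRSF10C and TRAF4. TP53I3, a quinone oxidoreductase-like enzyme, had the largest rise of all genes tested: it read 7.23 and 7.22 on the control arrays, 9.99 and 10.05 after Nutlin-3 and 9.54 and 9.45 after 5FU, a change of 2.79 (interval 2.50 to 3.09; adjusted p = 0.000845, limma). FAS, the death receptor, read 6.92 and 6.52 against 8.09 and 8.40 and rose by 1.53. TNFRSF10B, which encodes the TRAIL receptor DR5, read 8.51 and 8.51 against 9.38 and 9.52 and rose by 0.94, with 20 of 20 probe sets up. The 3 BCL-2 family genes followed here did not pass. BAX, the pore-forming effector, read 8.41 and 8.52 against 8.81 and 9.10, a difference of 0.49 (interval 0.14 to 0.84; adjusted p = 0.272, limma) with 16 of 16 probe sets up. BBC3 (PUMA) read 7.41 and 7.53 against 7.99 and 7.86, a difference of 0.45, with all 9 probe sets up. PMAIP1 (NOXA) read 8.48 and 8.23 on the control arrays and 8.16 and 8.73 after Nutlin-3, which overlap, but 9.40 and 9.77 after 5FU. Its difference from control was 0.09 (interval -0.46 to 0.63) after Nutlin-3 and 1.23 (interval 0.69 to 1.78) after 5FU. Nutlin-3 lay 1.15 below 5FU for this gene, and that difference did not pass the adjusted threshold either (adjusted p = 0.101, limma).

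In the DNA repair list, 2 of 17 rose and 1 fell. RRM2B, the p53-inducible ribonucleotide reductase subunit, read 8.37 and 8.15 against 9.23 and 9.63 and rose by 1.17, although its call held in 4 of 14 fits. APOBEC3C, a cytidine deaminase, read 7.83 and 7.99 against 9.01 and 9.16 and rose by 1.18. GTSE1, the member that fell (by 1.32, from 7.96 and 8.05 to 6.64 and 6.75), is a G2 and S phase protein that binds microtubules and moves p53 out of the nucleus; it also stands in the list of mitotic entry and exit. DDB2 and XPC, damage-recognition proteins of nucleotide excision repair, were higher by 0.84 and 0.83 without passing. Neither pair of groups overlapped, which also held for 34.2% of all genes. In the metabolic list 4 of 24 rose: ACER2 (an alkaline ceramidase, by 1.16), FDXR (ferredoxin reductase, by 1.08), NADSYN1 (NAD synthetase, by 1.07) and ABHD4 (a lysophospholipase, by 0.93, a call that held in 6 of 14 fits). In the mTORC1 and autophagy list 3 of 17 rose: TP53INP1, SESN1 and DDIT4. The medians of the repair, metabolic and autophagy lists were 0.37, 0.62 and 0.29.

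Genes for secreted and surface proteins supplied 7 of the rises from 29 measured members (median 0.53). SERPINB5 (maspin), a serpin of epithelial cells, read 6.36 and 6.14 against 8.24 and 8.84 and rose by 2.29. ABCA12, a lipid transporter of keratinocytes, read 4.58 and 4.61 on the control arrays, below the 4.73 used as the brightness threshold, and 6.44 and 6.92 after Nutlin-3. It was a member through its higher treated arrays, so the size of its rise, 2.08, is uncertain. SULF2, an extracellular heparan sulfate endosulfatase, read 6.44 and 6.45 against 8.20 and 8.46 and rose by 1.88. TLR3, the endosomal receptor for double-stranded RNA, read 5.51 and 5.05 against 6.70 and 7.12 and rose by 1.63. CYFIP2, CD82 and EPS8L2 rose by 1.63, 1.36 and 0.88. DNAI3, a dynein intermediate chain gene, ANKRA2, an ankyrin-repeat protein gene, and ACTA2, smooth muscle actin, were the other named rises. DNAI3 read 4.46 and 4.31 on the control arrays, also below the threshold, and 6.14 and 6.63 after Nutlin-3, so the size of its rise is uncertain too. ANKRA2 and ACTA2 rose by 1.78 and 1.68. ACTA2 lies beside FAS and the genes overlap, so their signals are uncertain to that extent. It read 6.48 and 6.67 on the control arrays and 8.17 and 8.35 after Nutlin-3. No part of fibroblasts in this value was tested, and of the other 10 markers of that list the largest difference was 0.19 (PDGFRB).

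**Figure D2:**
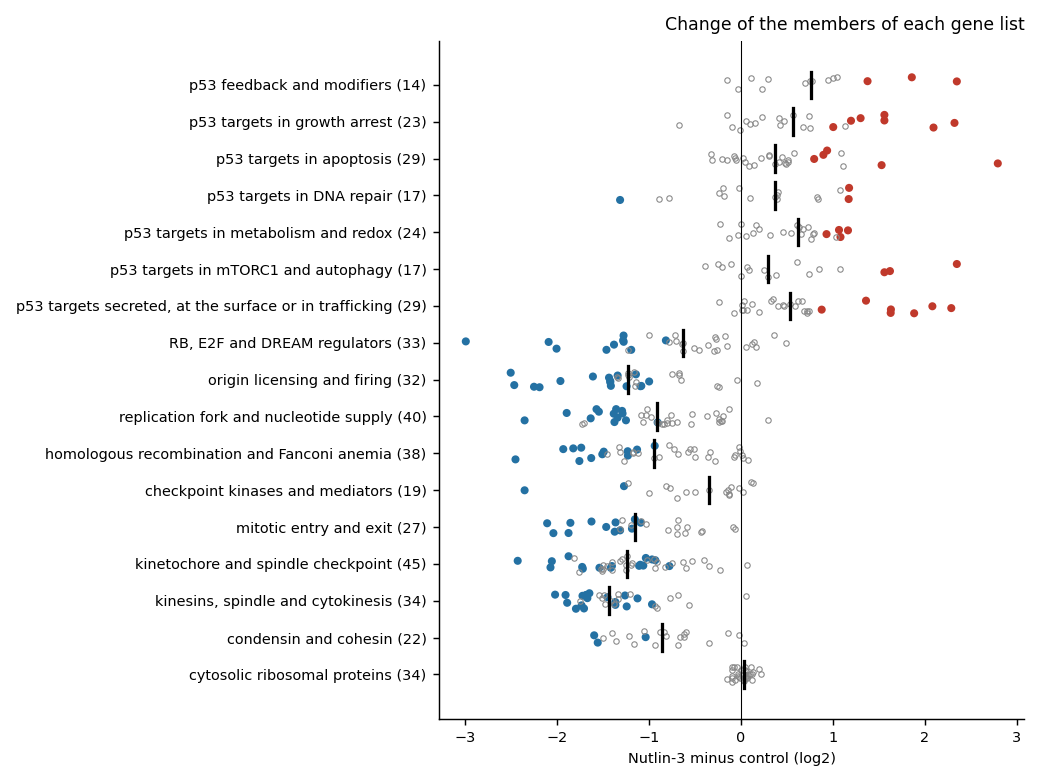
Change of each measured member (Nutlin-3 minus control, log2) in 17 gene lists, with the number measured in parentheses. Filled points were called (red rose, blue fell), open circles were not, and black bars are list medians; the 7 p53 lists have medians from 0.29 to 0.76, the 9 cell-cycle lists from -1.44 to -0.35, and the 34 ribosomal protein genes lie within 0.22 of 0.

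All 9 cell-cycle lists had medians below 0 in each of the 12 settings, and none of their members rose. Of 33 measured regulators around RB, E2F and DREAM, 10 fell (median -0.64), against 0.858% of all genes. CCNE2, which encodes cyclin E2, the partner of CDK2 at the start of S phase, had the largest fall of any gene with at least 3 probe sets. It read 7.78 and 7.28 on the control arrays and 4.30 and 4.76 after Nutlin-3, a change of -2.996 (interval -3.63 to -2.36; adjusted p = 0.00861, limma). Its Nutlin-3 mean of 4.53 lay below the brightness threshold, so the size of the fall is uncertain and no fold is given. E2F8, an atypical E2F that represses transcription, read 8.13 and 7.97 against 5.86 and 6.05 and fell by 2.09. CDC25A, the phosphatase that activates CDK2, read 8.55 and 8.03 against 6.15 and 6.41 and fell by 2.01. RBL1 (p107), an RB relative of the DREAM complex, read 8.01 and 7.65 against 6.19 and 6.54 and fell by 1.46. E2F1 read 7.86 and 7.83 against 6.98 and 7.08 and fell by 0.82 (adjusted p = 0.0386, limma), a call that held in 6 of 14 fits; FOXM1 and MYBL2, activators of mitotic genes, fell by 1.28 and 1.38. The cyclin E1 and CDK2 genes, CCNE1 and CDK2, fell by 1.28 and 1.195. RB1 and cyclin D1, followed whatever their values, did not pass. RB1 read 7.997 and 7.79 against 7.29 and 7.90, with overlap, and CCND1 read 11.05 and 11.19 against 11.17 and 11.18, a difference of 0.05 with an interval from -0.25 to 0.36.

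Genes that assemble and fire replication origins fell in 16 of 32 measured cases (median -1.23). MCM10, which activates the replicative helicase, read 9.47 and 9.24 against 6.60 and 7.10 and fell by 2.51, with 27 of 27 probe sets lower by more than 1. DTL, the substrate receptor that sends the licensing factor CDT1 to destruction, read 9.24 and 8.68 against 6.33 and 6.65 and fell by 2.47. CDC6, the loader of the MCM helicase, read 9.996 and 9.70 against 7.45 and 7.74 and fell by 2.25. TICRR (treslin), needed for origin firing, read 8.10 and 7.84 against 5.61 and 5.95 and fell by 2.19. The helicase subunit genes MCM2, MCM3 and MCM5 fell by 1.34, 1.42 and 1.00. At the fork, 13 of 40 fell (median -0.91), among them CLSPN, the adaptor of CHK1 activation (8.28 and 7.35 against 5.35 and 5.57), POLD3, a DNA polymerase delta subunit (7.72 and 7.54 against 5.55 and 5.91), and UHRF1, the reader of hemimethylated DNA (9.60 and 9.67 against 7.93 and 8.07). Of these, CLSPN had the more distant control arrays. PCNA, the sliding clamp and itself a p53 target, read 9.09 and 8.91 against 8.45 and 9.16 and overlapped. TYMS, the thymidylate synthase that 5FU inhibits, read 10.51 and 10.38 against 10.02 and 10.34, a difference of -0.27 that did not pass.

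Recombination genes followed, of which 12 of 38 fell (median -0.94). EXO1, the exonuclease of end resection and mismatch repair, read 9.28 and 8.72 against 6.39 and 6.70 and fell by 2.45. BRIP1 and BLM, helicases of interstrand crosslink repair and of recombination, fell by 1.93 and 1.76, and BRCA1 and BRCA2 by 1.51 and 1.63. Of 19 checkpoint genes, CLSPN and WEE1 fell (median -0.35). The apical kinase genes ATM and ATR differed by -0.02 and -0.11, and the 17 that were not called included CHEK1, the effector kinase, at -1.004 (adjusted p = 0.0742, limma).

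Each group of mitotic genes held falls. In mitotic entry and exit 12 of 27 fell (median -1.16) and every member lay below 0. MASTL (Greatwall), the kinase that restrains PP2A in mitosis, read 7.88 and 7.45 against 5.16 and 5.94 and fell by 2.11. FBXO5 (EMI1), an inhibitor of the anaphase-promoting complex, read 9.09 and 8.41 against 6.51 and 6.90 and fell by 2.04. PLK4, the kinase of centriole duplication, read 8.31 and 7.57 against 5.89 and 6.24, and CCNA2 (cyclin A2) read 9.95 and 9.36 against 7.69 and 7.91, falls of 1.88 and 1.86. CDK1, listed in the annotation under its older symbol CDC2, read 8.25 and 7.80 against 6.48 and 7.50, a difference of -1.03 (interval -1.88 to -0.18; adjusted p = 0.369, limma) with the Nutlin-3 arrays wide apart. Of 45 kinetochore and spindle checkpoint genes 16 fell (median -1.24), led by NDC80 of the outer kinetochore (8.11 and 7.53 against 4.82 and 5.96). SKA1, which couples kinetochores to microtubules, fell by 2.07, BUB1B (BUBR1) by 2.06 and HJURP, the chaperone of CENP-A, by 1.88. Of 34 kinesin, spindle and cytokinesis genes 18 fell (median -1.44), and groups did not overlap for 33 (97.1%, against 34.2% of all genes). KIF11 (Eg5), the motor of spindle bipolarity, read 7.89 and 7.57 against 5.40 and 6.01 and fell by 2.02; KIF2C, STIL and KIF18A fell by 1.91, 1.89 and 1.797. Condensin and cohesin held 3 falls among 22 (NCAPH, CDCA5 and NCAPD3; median -0.86), and the call of NCAPD3 held in 4 of 14 fits. For comparison, none of 34 cytosolic ribosomal protein genes was called, and their median of 0.03 moved between -0.08 and 0.14 over the 12 settings.

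**Figure D3:**
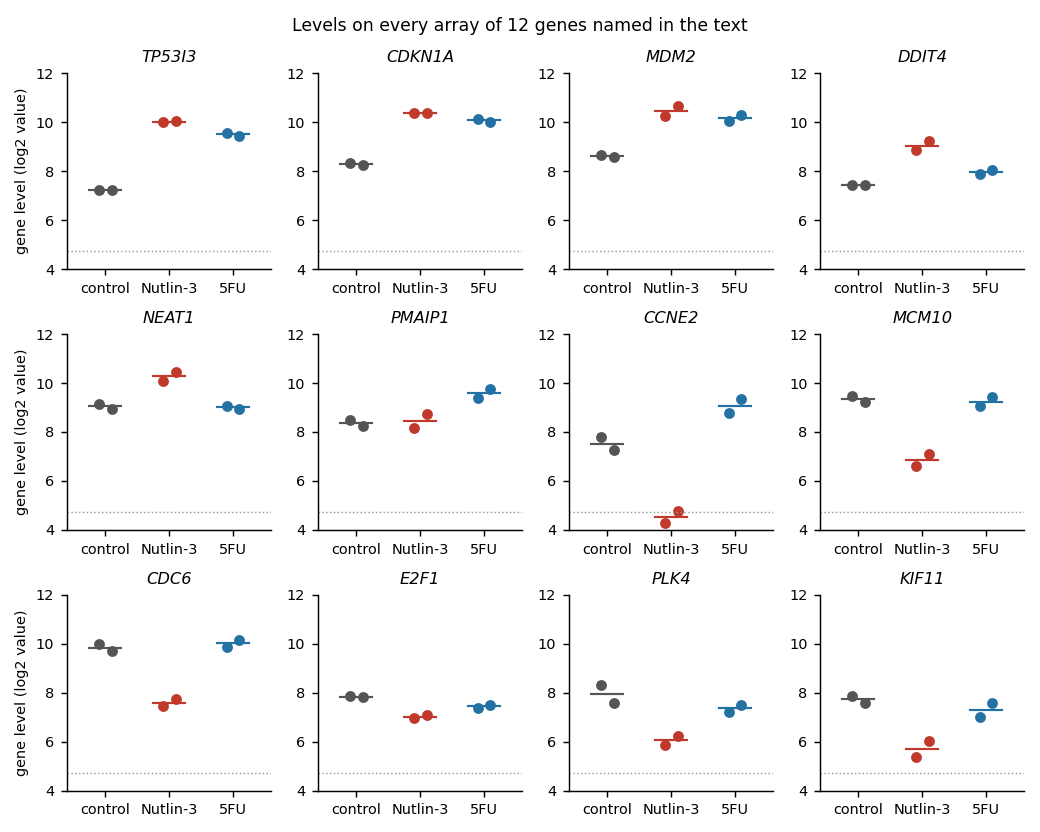
Levels on every array (log2 value) of 12 genes named in the text: each point is 1 array, the short line is the mean of the 2 arrays of a group, and the dotted line marks the brightness threshold of 4.73. CCNE2 lies around the threshold after Nutlin-3 (4.30 and 4.76) and highest after 5FU (8.77 and 9.36), while PMAIP1 overlaps between control and Nutlin-3 and is highest after 5FU (9.40 and 9.77).

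Genes of the clustered histones, taken by symbol after the calls were seen, were measured in 25 cases: 12 fell, none rose and 13 were not called (median -0.95). The 12 that fell encode histones H1, H2A and H2B, from H2BC13 (by 1.21) to H2BC14, which read 11.52 and 11.46 on the control arrays, 8.14 and 8.07 after Nutlin-3 and 7.97 and 7.87 after 5FU. Its fall of 3.38 was the largest of all genes but rests on 2 probe sets. Histone genes are near-identical copies of each other and share signal, so single genes among them are uncertain. For H2BC14 the difference between Nutlin-3 and 5FU was 0.18 (interval -0.12 to 0.49), whereas CCNE2 stood far apart between the treatments.

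Promoter windows of the called genes were searched for 4 short motifs tied to the pathway, and printed sequences come from RefSeq (build GRCh38.p14), 250 bases before to 50 bases after an annotated start. The motifs were the p53 decamer (the element that p53 binds as adjacent copies), an E2F site (TTTCCCGC, TTTCGCGC, TTTGCCGC or TTTGGCGC), the CHR (TTTGAA) and the CCAAT box (CCAAT), each on both strands; none of these letter strings contains another. Windows matched 52 of the 64 genes that rose and 128 of the 153 that fell, and a gene counted once if any of its windows held the motif. A few stretches are shown so that a reader can see the letters. They are from called genes of largest change in the growth-arrest, licensing, and mitotic entry and exit lists that had a match upstream of the start. Called genes without one, or on a chromosome set aside by the rule, were passed over. Only SESN1 was left in the growth-arrest list, and MCM10, CDC6 and TICRR were passed over among licensing genes. Each stretch runs 5′ to 3′ on the gene's strand with the match in capitals. SESN1 (chr6:109008989-109009077, minus strand) carries a p53 decamer; DTL (chr1:212035700-212035747, plus strand), MCM3 (chr6:52284869-52284956, minus strand) and GINS2 (chr16:85688955-85689025, minus strand) carry an E2F site, in GINS2 on the opposite strand; MASTL (chr10:27155102-27155149, plus strand), FBXO5 (chr6:152983042-152983121, minus strand) and PLK1 (chr16:23678820-23678888, plus strand) carry a CHR, in MASTL and FBXO5 on the opposite strand.
SESN1: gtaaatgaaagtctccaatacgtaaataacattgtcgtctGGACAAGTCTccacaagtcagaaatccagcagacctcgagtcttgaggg
DTL: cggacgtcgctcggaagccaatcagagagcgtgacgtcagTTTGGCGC
MCM3: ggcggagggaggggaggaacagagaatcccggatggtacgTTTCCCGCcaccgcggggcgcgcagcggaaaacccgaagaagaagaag
GINS2: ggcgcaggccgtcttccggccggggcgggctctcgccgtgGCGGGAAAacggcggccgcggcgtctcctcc
MASTL: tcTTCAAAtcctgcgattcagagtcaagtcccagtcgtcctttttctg
FBXO5: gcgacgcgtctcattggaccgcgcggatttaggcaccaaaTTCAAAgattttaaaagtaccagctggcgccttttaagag
PLK1: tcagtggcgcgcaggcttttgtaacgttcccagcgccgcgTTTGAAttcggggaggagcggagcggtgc

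The genes that rose held a p53 decamer in 21.2% of cases, those that fell in 5.47% and all tested genes in 8.19%. An E2F site was found in 29.7% of the genes that fell, 7.69% of those that rose and 5.69% of all. The CHR was found in 35.9%, 13.5% and 14.8% of these groups, and the CCAAT box in 72.7%, 48.1% and 42.3%. By list, of 15 fallen licensing genes with a window, 9 held an E2F site and 0 a CHR, and of 11 fallen fork genes 4 and 1. Of 11 fallen genes of mitotic entry and exit, 0 held an E2F site and 8 a CHR, of 14 fallen kinetochore genes 2 and 10, and of 16 fallen kinesin and cytokinesis genes 1 and 11. No test compared the lists. Of the genes printed above, MCM3 read 9.67 and 9.13 on the control arrays and 7.98 and 7.98 after Nutlin-3, GINS2, a subunit of the replicative helicase, 8.07 and 7.97 against 6.502 and 6.70, and PLK1, the mitotic kinase, 9.54 and 9.62 against 8.07 and 8.34. A match is a string of letters and not a bound site, and 6.63% of all 35116 windows in the promoter file held the p53 decamer, 3.31% the E2F site, 15.2% the CHR and 34.6% the CCAAT box.

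**Figure D4:**
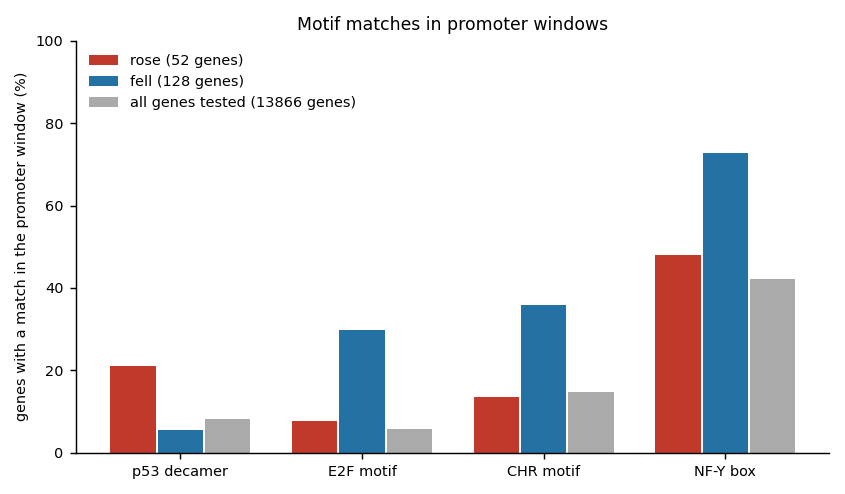
Share of genes with at least 1 match of each motif in a promoter window (%), for genes that rose (52 with a window), genes that fell (128) and all genes tested (13866). Bars start at 0; the falling genes exceed all genes for the E2F site, the CHR and the CCAAT box, and the rising genes for the p53 decamer.

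With Nutlin-3 and 5FU set directly against each other, 113 genes passed (0.633% of those tested): 102 were lower after Nutlin-3 (0.572%) and 11 higher (0.0617%), with 2377 at an unadjusted p under 0.05. This comparison shares the Nutlin-3 arrays with the one above, and 5FU against control, in which 80 genes passed (0.448%), shares its control arrays, so values are set side by side. CCNE2 read 4.30 and 4.76 after Nutlin-3 and 8.77 and 9.36 after 5FU, with the control arrays between them; the treatments lay 4.53 apart (interval 3.89 to 5.17 in size; adjusted p = 0.00502, limma), a size limited by the Nutlin-3 values at the threshold. FAM111B, a serine protease linked to replication, read 4.30 and 4.80 against 7.51 and 7.81, a difference of -3.11 with the same limit, and DTL 6.33 and 6.65 against 9.36 and 9.51, a difference of -2.94. Of the licensing list 14 of 32 genes were lower after Nutlin-3 than after 5FU, of the fork list 12 of 40, of the recombination list 10 of 38 and of the RB, E2F and DREAM list 9 of 33. The median changes of these 4 lists against control were -1.23, -0.91, -0.94 and -0.64 after Nutlin-3 and -0.03, 0.06, 0.06 and 0.15 after 5FU.

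Among mitotic genes after Nutlin-3, 3 of 27 entry and exit genes, 7 of 45 kinetochore genes and 4 of 34 kinesin and cytokinesis genes were lower than after 5FU. PLK1 read 8.07 and 8.34 after Nutlin-3 and 8.09 and 8.24 after 5FU. AURKA, a kinase of spindle poles, read 7.01 and 7.62 against 7.02 and 7.41, with control arrays at 8.89 and 8.68, and the difference between the drugs was 0.10 (adjusted p = 0.888, limma). BUB1B, a spindle checkpoint protein, read 6.23 and 6.88 after Nutlin-3, 6.80 and 7.47 after 5FU and 8.77 and 8.46 in controls. Median changes against control in the 3 lists were -1.16, -1.24 and -1.44 after Nutlin-3 and -0.43, -0.22 and -0.44 after 5FU. No test compared the lists with each other.

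Among the genes that rose, NEAT1 and DDIT4 were higher after Nutlin-3 than after 5FU. Both calls were lost without Nutlin-3 replicate 1 and without either 5FU array, and they did not both hold without Nutlin-3 replicate 2. NEAT1, the long noncoding RNA of paraspeckles, read 9.15 and 8.96 on the control arrays, 10.07 and 10.47 after Nutlin-3 and 9.06 and 8.96 after 5FU, a difference between drugs of 1.27 (interval 0.86 to 1.67; adjusted p = 0.0383, limma); its call against control held in 6 of 14 fits. DDIT4 (REDD1), an inhibitor of mTORC1, read 7.42 and 7.43, then 8.87 and 9.22, then 7.86 and 8.03, a difference of 1.10 (adjusted p = 0.0442, limma). For both genes the Nutlin-3 arrays lay above the other 4. CDKN1A and MDM2 differed between the drugs by 0.32 (interval 0.02 to 0.61) and 0.29 (interval -0.13 to 0.72) without passing. The number of differences again rested on single arrays: it was 9 without Nutlin-3 replicate 1, 51 without Nutlin-3 replicate 2, 18 without 5FU replicate 1 and 3 without 5FU replicate 2, and all 113 kept their direction.

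Within genes, most probe sets moved with their gene. In the 217 called genes a median of 100% of the probe sets lay on the gene's side of 0 (lowest 60%), against 70% over all genes, and in 113 of them every probe set did. A gene's change is the mean over these same probe sets, and the called genes were selected by it. A higher share than over all genes was therefore built in. Probe sets that departed from the mean of their gene were tested with limma's diffSplice, which pools the spread over the probe sets of a gene: 421 of 268126 were called (0.157%), 208 upward and 213 downward, and 277 genes (1.55%) held one by Simes' test over their probe sets. That pooling matters, because limma on each probe set's own difference from its gene called 0 (13503 at an unadjusted p under 0.05), and simulated probe sets with unequal spreads gave false calls. The count without Nutlin-3 replicate 2 was 2271, and without either 5FU array 183. The count is therefore a description, and the values carry what follows. In the 217 called genes 3.65% of 4113 probe sets were called, against 0.103% in all other genes. An unchanged probe set departs by the size of its gene's change, so part of this contrast follows from how the called genes were selected.

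Of the 150 departing probe sets in called genes, 102 departed against the change of their gene, and 80 of these moved by less than 1 (log2) over all 6 arrays while the gene changed around them. In 70 of the 102 both groups were above 6.45, the upper quartile of all probe-set means. The clearest was in CCNE2: its probe set 3145132 read 7.51 and 6.92 on the control arrays, 7.44 and 7.06 after Nutlin-3 and 7.19 and 6.93 after 5FU, a change of 0.04 where the gene fell by 2.996. Of the gene's other 14 probe sets, 13 were lower by more than 1, and the lowest changed by -4.54. The remaining probe set, 3145126, was also called and changed by -0.33. A flat probe set also makes the gene mean understate what the other probe sets did: the median over CCNE2's probe sets was -3.32. TP53I3 had a flat one as well, 2544217, at 6.37 and 6.72 against 6.77 and 6.89, where the gene rose by 2.79 and its median probe set by 3.36. It was among 5 called in TP53I3: 2544216 and 2544215 also rose less than the gene, by 0.57 and 1.68, and 2544203 and 2544211 rose more.

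**Figure D5:**
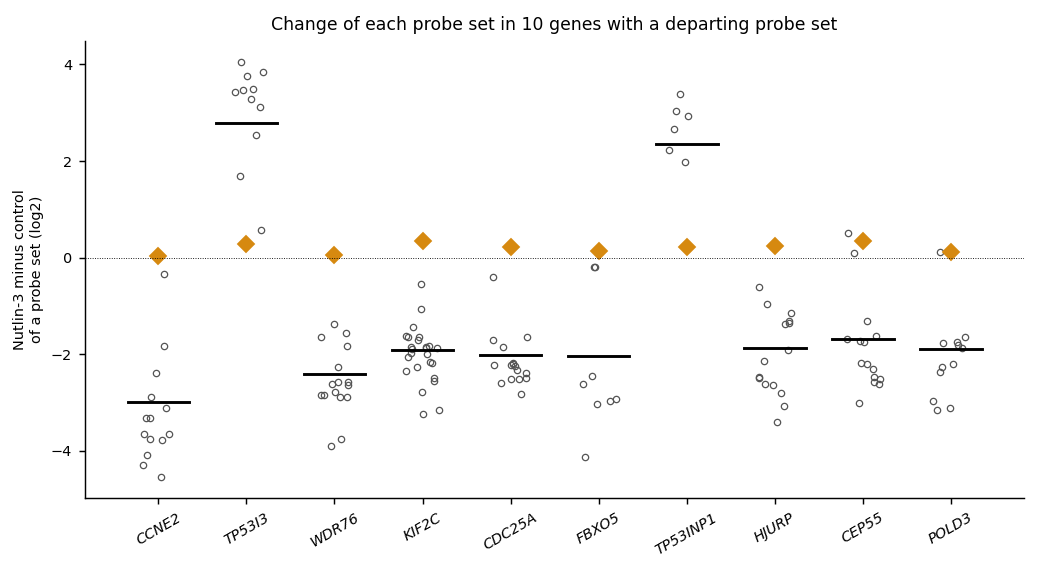
Change of each used probe set (Nutlin-3 minus control, log2) in the 10 genes that hold the bright departing probe sets with the largest departures. Black bars are gene means, and orange diamonds are the largest bright departing probe set of each gene. Open circles are the other probe sets, some of them called as departing too. The diamonds lie between 0.04 and 0.35 in all 10 genes, of which 8 fell and 2 rose. Taking bright probe sets with large departures favours such flat ones.

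The 8 other genes of that rule also gave flat probe sets, which the rule favours. An unchanged probe set departs by its gene's whole change, and one that falls far beyond its gene is seldom bright in both groups. The flat probe sets taken by the rule were 3591705 in WDR76 (a DNA-damage-associated WD40 protein), 2334131 in KIF2C, 2673107 in CDC25A, 2980254 in FBXO5, 3145161 in TP53INP1, 2604280 in HJURP, 3258447 in CEP55 (which acts in abscission) and 3340275 in POLD3. Some of these genes held further ones that were called: 3340277 in POLD3 changed by 0.11, 2673108 in CDC25A by -0.41 and 3258448 in CEP55 by 0.50. Flat without a call were 2980255 and 2980256 in FBXO5 and 3258449 in CEP55. The further called probe sets of FBXO5 and HJURP, 2980245 and 2604266, went beyond their gene, at -4.13 and -3.40. In CDC25A the probe set read 8.17 and 8.32 against 8.57 and 8.35, while 16 of the gene's 17 probe sets were lower. In TP53INP1 it read 7.80 and 8.34 against 8.04 and 8.53, in a gene that rose by 2.35. The calls in CCNE2, TP53I3, KIF2C and CDC25A held in all 13 settings that refitted diffSplice, that in FBXO5 in 7, and the direction held in all for the 10. The 13 also include the fit as reported, and leaving out either 5FU array repeats the fit of the 4 compared arrays. The rule took only departures that do not overlap between control and Nutlin-3, so leaving out 1 array could not turn a direction. What these probe sets bind was not tested. Probe-set positions within the genes were not used here, so no exon is named.

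Other departures went beyond the gene's change. TNFRSF10C, a decoy receptor for TRAIL, rose by 0.90 (a call that held in 6 of 14 fits), but its probe set 3089826 went from 4.32 and 3.21 on the control arrays to 7.15 and 7.88 after Nutlin-3 and 6.05 and 6.81 after 5FU, while the median probe set of the gene changed by 0.26. FANCA, a core protein of the Fanconi anemia pathway, fell by 1.13, and its probe set 3705054 went from 6.66 and 6.68 to 2.20 and 3.17. In both, 1 side lay below the brightness threshold of 4.73. E2F1 was uneven in the same sense: 12 of its 15 probe sets were lower, from -2.68 to 0.23 with a median of -0.24, so its fall of 0.82 was not even over the gene. CDKN1A held 2 called probe sets among 9: 2905177 rose by 0.52 and 2905178 by 3.44, where the gene rose by 2.10. Genes that were not called held 271 departing probe sets, 147 of them with 1 group below the threshold. Of the bright ones, ASTN2 was singled out after its values were seen: the probe set 3222541 read 7.50 and 7.29 on the control arrays, 9.53 and 9.21 after Nutlin-3 and 8.46 and 8.44 after 5FU, in a gene that differed by 0.31; its call was lost without control replicate 2 or Nutlin-3 replicate 1.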

How the data were processed

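RNA of 6 samples (2 control, 2 Nutlin-3, 2 5FU) was measured on Affymetrix Human Exon 1.0 ST arrays. The authors deposited 1 log2 value per probe set and array, made with RMA (background correction, normalization between arrays and probe summary) per the submitters' processing notes. Its version, the genome build and scan dates were not given in the sources used here. There were 1411399 probe sets, none with a missing value, and the medians of the arrays ran from 4.73 to 4.78. With no detection call in RMA output, precision is limited by the number of arrays.

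GEO's platform annotation named the probe sets: 357604 had 1 symbol, and 15322 had several and were left unnamed. Among 19560 symbols 16472 were current in RefSeq (GRCh38.p14), 2966 were updated through a synonym and 122 kept. CDK1 was found under its older symbol CDC2. A gene's value was the mean log2 value of its used probe sets, with at least 2. A single linear model over the 3 groups was fitted in limma 3.58.1 (R 4.3.3; lmFit, eBayes), the 5FU arrays included for their spread, with Benjamini-Hochberg adjustment over all 17841 genes and a threshold of 0.05. Probe sets within genes were tested with diffSplice. The steps were tested on simulated data. Groups and replicate numbers came from the titles; deviations of same-numbered arrays correlated at -0.56 (control with Nutlin-3), -0.52 (control with 5FU) and 0.63 (Nutlin-3 with 5FU), so the numbers were not taken to pair samples.

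The members and gene lists were chosen with earlier results of these data known. Genes were named by rule: the 12 called genes that rose most and the 12 that fell most (at least 3 probe sets, groups apart), up to 4 called members per list, 10 genes whatever their values, the 10 genes with the largest bright departing probe set, and the 3 largest differences from 5FU each way among genes also called against control, of which 2 were higher. Further list members were named as examples after their values were seen. Alternatives varied the filter on dim probe sets, the probe sets per gene, their summary, the centring, the variance model, the arrays in the fit, the replicate number and single replicates.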

Additional observations from a re-analysis of the deposited data

How the results depend on the processing

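Every gene called against control kept its direction in each setting that tested it. With 1 array left out this was fixed in advance, as the groups did not overlap in any of these genes. Of the 217 called genes, 210 were also called among 380 with only probe sets above the upper quartile and all 217 among 381 with arrays centred on their medians; leaving out 1 replicate gave 5 to 149 calls. The comparison with 5FU (113 genes) gave 69 without a filter, 234 above the upper quartile, 69 with the median of probe sets, 297 with centred arrays and 3 to 104 with 1 replicate left out. Departing probe sets numbered 421 as reported, 0 by limma on each probe set minus its gene mean, 183 with only the 4 arrays compared and 183 to 2271 with 1 replicate left out. With the replicate number as a block, 2 genes passed against control (TP53I3 kept its call), 0 against 5FU (1821 at an unadjusted p under 0.05) and 315 probe sets departed; a block with crossed numbers, chosen after seeing the negative correlation of deviations, gave 1788, 2821 and 1936. The cause of these shifts was not tested. The split of the calls against control was 64 higher to 153 lower as reported, 110 to 271 with centred arrays, 3 to 2 without control replicate 1, 17 to 98 without control replicate 2, 13 to 18 without Nutlin-3 replicate 1 and 16 to 115 without Nutlin-3 replicate 2.

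Signs turned for genes that were not called: CCND1 (-0.018 to 0.12 with 1 replicate left out) without control replicate 1, MDM4 (-0.10 to 0.56) without control replicate 2 (-0.10) or Nutlin-3 replicate 2 (-0.07), PMAIP1 (-0.20 to 0.37) in the same fits (-0.04 and -0.20), and RB1 (-0.60 to 0.0081) without Nutlin-3 replicate 1. List medians kept their sign in 12 settings, except that of the ribosomal proteins. The limits are 2 arrays a group, 1 cell line and 1 time point, replicates of unstated origin, and a control that may or may not have had DMSO. The background step of RMA cannot be undone in the deposited values.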

Other observations

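Of the 35 rises outside the p53 lists, the genes in this paragraph were chosen after their values were seen and stand for no group. GALNT5, a glycosyltransferase that starts mucin-type O-glycans, read 8.36 and 7.84 on the control arrays, 9.68 and 9.77 after Nutlin-3 and 9.79 and 9.95 after 5FU. AHNAK2, a large scaffold protein, read 7.37 and 7.42 against 8.64 and 8.90. LAMA3, a chain of the epithelial laminin, rose by 1.02, and KRT15, a keratin of basal epithelium, by 0.99. TAP1, the peptide transporter of antigen presentation, read 8.01 and 7.66 against 9.03 and 9.10 and rose by 1.22. ABCA1, the cholesterol exporter, rose by 0.89 from 5.64 and 5.66 to 6.49 and 6.59. ALOX5, the 5-lipoxygenase, read 5.58 and 5.73 on the control arrays, 6.46 and 6.54 after Nutlin-3 and 5.98 and 5.96 after 5FU. INPP5D and STAT4, an inositol phosphatase and a transcription factor best known from blood cells, rose by 1.12 and 1.17, while none of the 8 blood cell markers was called; the part of other cells in these values was not tested.

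Among the falls outside the lists, also chosen after their values were seen, MKI67, the antigen of proliferating cells, read 9.47 and 9.14 on the control arrays, 7.40 and 7.92 after Nutlin-3 and 9.16 and 9.40 after 5FU. MSH6, of mismatch repair, read 8.54 and 7.83 against 6.39 and 6.73 and fell by 1.63. UNG, the uracil-DNA glycosylase, read 8.53 and 8.59 against 7.16 and 7.44, with 5FU arrays at 8.39 and 8.63. PER2, a repressor of the circadian clock, fell by 1.01, from 7.46 and 7.31 to 6.28 and 6.47. TCF19, a transcription factor of proliferating cells, read 7.89 and 7.52 in controls, 6.21 and 6.34 after Nutlin-3 and 8.66 and 8.91 after 5FU, the order also seen for CCNE2.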
